A study of Rattus norvegicus with 4 samples.

Results

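Collagen genes were compared between cultured rat heart muscle cells that carried an adenovirus with Pdk3 and cells that carried a mock adenovirus. The members are the protein-coding rows of the table whose symbol reads Col, a number, the letter a and a number. There were 37 of them among 16290 genes, 10 of fibrillar collagens, 6 of type IV, the basement membrane collagen, and 21 of other types. The cells were neonatal cardiomyocytes of Rattus norvegicus at postnatal day 3, grown with horse serum, and an adenovirus is a virus used to carry a gene into cells. The mock group held the libraries Mock 1 and Mock 2, and the Pdk3 group held Pdk3 1 and Pdk3 2, each from cells that had received a vector. Pdk3 encodes a kinase that inhibits the pyruvate dehydrogenase complex, and the series title concerns glycolysis and the division of cardiomyocytes after injury.

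Collagens are secreted proteins whose chains wind around each other into a long helix built from repeats that begin with glycine. Fibrillar collagens assemble into the tension-bearing fibres of the matrix and in the heart come mainly from fibroblasts. Type IV collagen forms the sheet-like network of basement membranes, which surround each cardiomyocyte and line vessels. The other types decorate fibrils, form beaded filaments or short networks, or span the cell membrane.

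Each value is a number of reads in a gene, scaled between libraries by the authors and called a normalised count here. The library sums lay between 4448199 and 4476649, and the median gene had a value of 140 to 144. Averaged over genes, the libraries of a pair differed by less than the counting noise of their reads in both groups, so the text says where the call of a named gene ends with counting noise as the least error. Pdk3 stood at 396 and 411 in the mock libraries and at 1218 and 1177 in the Pdk3 libraries (log2 fold change 1.57, limma adjusted p = 1.47e-06), where vector and endogenous transcripts are counted as 1 gene. The labels do not say whether the libraries of a group came from separate cultures, so p-values here reflect the spread between these 4 libraries alone and that spread may be technical. Of the 16 planned cardiomyocyte markers, 15 were in the table, and their values summed to 25871 and 25619 in the mock and 26792 and 26420 in the Pdk3 libraries.

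Collagen genes passed the test at a share near that of all genes, with log2 fold changes of -0.07 to 0.14 in 4 of the 5 that passed and of 0.79 in Col26a1. Of the 37 members, 28 reached a value of 10 in at least 2 libraries and were tested. With limma, a linear model with moderated variances fitted on log2(value + 1), 4 of the 28 were higher in the Pdk3 libraries and 1 was lower at an adjusted p under 0.05. That is 17.9% of those tested, against 22.9% of all 12838 genes tested (11.7% higher and 11.3% lower). The higher genes were Col4a4, Col4a2, Col12a1 and Col26a1, and the lower gene was Col18a1. The median log2 fold change of the 28 was 0.02, beside -0.01 over all genes, and the median size of the change without its sign was 0.07, beside 0.12. Among the 12 members with a mean of at least 500, that size was 0.06, beside 0.07 for all genes with such a mean. Of these 12 members 33.3% passed, against 34.2% of all such genes. When p was not allowed below that of an exact binomial test on reads summed per group, here called counting noise, Col4a4 and Col26a1 still passed, 7.1% of the members against 15.9% of all genes (8.39% higher and 7.50% lower). With libraries rescaled to make the median ribosomal protein gene level, 1 collagen gene was higher and 8 were lower, while the whole table went from 1496 higher and 1449 lower to 937 and 3594. Leaving out any 1 library, Mock 1, Mock 2, Pdk3 1 or Pdk3 2, left limma with 0 calls over all genes, while 5 to 7 collagen genes and 2918 to 3330 of all genes had an unadjusted p under 0.05. Without each library in turn, the log2 fold change of Col4a4 lay between 0.11 and 0.16. Counting noise alone, an alternative chosen after seeing the data, takes no account of spread between libraries. With all libraries it gave 3 collagen genes higher and 0 lower. Both Pdk3 libraries lay above both mock libraries in 8 of the 28 (29.9% of all genes tested) and below them in 6 (31.1%).

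**Figure D1:**
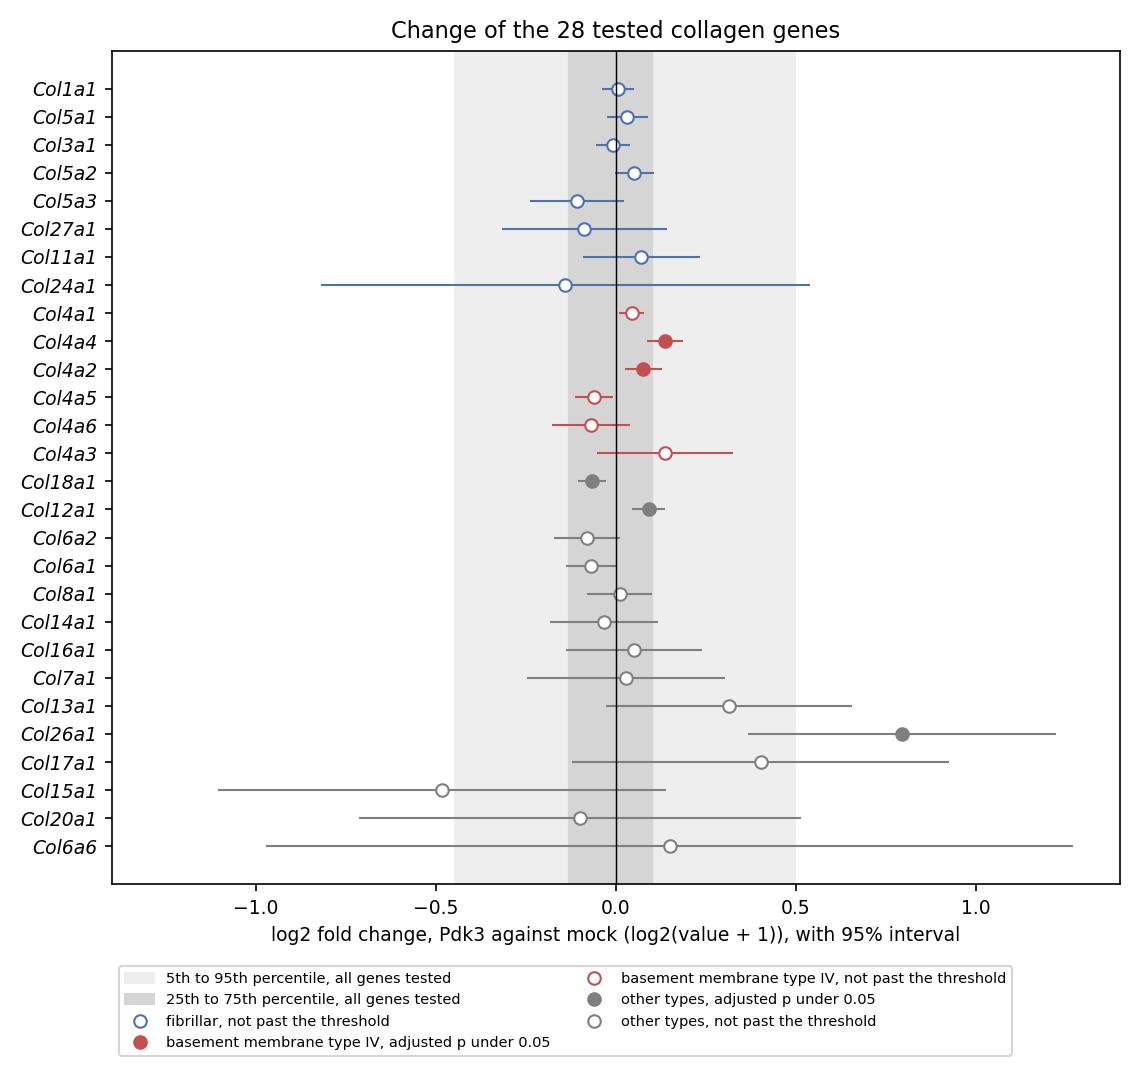
Log2 fold change (x axis, log2(value + 1) scale) of the 28 tested collagen genes in the Pdk3 libraries against mock, ordered by class and then by level, as points with 95% intervals from limma. Filled points mark an adjusted p under 0.05, and the bands span the middle of all 12838 genes tested. Most members lie within the narrow band, Col26a1 stands at 0.79, and the low members have wide intervals.

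Promoter stretches are shown for the genes whose values carry these results. They come from RefSeq (build GRCr8, not the rn6 build of the table) and were cut so that they hold no base of an annotated gene. In RefSeq, Col4a1 and Col4a2 lie head to head with 76 bases between their annotated starts. Hence 1 stretch, written on the strand of Col4a1, serves both. In the table's own coordinates 83600 bases lie between these genes. Col4a3 and Col4a4 also lie head to head, 412 bases apart in RefSeq and 373 bases apart in the table's own coordinates, and the stretch shown is the part next to Col4a4 on its strand. That of Col26a1, the tested member with the largest log2 fold change, ends before the first annotated start of the gene. Capitals mark a GC box, searched as GGGCGG or CCGCCC.
Col4a1 and Col4a2, chr16:84885521-84885596, plus strand: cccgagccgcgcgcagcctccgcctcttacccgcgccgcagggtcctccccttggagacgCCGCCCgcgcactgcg
Col4a4, chr9:91323578-91323827, minus strand: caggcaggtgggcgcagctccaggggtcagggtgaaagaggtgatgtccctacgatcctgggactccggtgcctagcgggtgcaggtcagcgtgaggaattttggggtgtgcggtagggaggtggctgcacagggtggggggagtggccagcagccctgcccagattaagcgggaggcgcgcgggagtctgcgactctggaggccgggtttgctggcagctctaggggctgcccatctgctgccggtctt
Col26a1, chr12:25429146-25429361, plus strand: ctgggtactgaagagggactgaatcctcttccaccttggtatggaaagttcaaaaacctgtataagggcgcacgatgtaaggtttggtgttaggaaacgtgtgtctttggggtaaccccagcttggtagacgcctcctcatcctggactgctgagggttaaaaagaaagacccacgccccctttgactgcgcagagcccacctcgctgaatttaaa

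The shared stretch of Col4a1 and Col4a2 held 1 GC box, as did 18.1% of all promoters in the same window, and no match to CCAAT or ATTGG or to TATAAA or TTTATA. The stretches of Col4a4 and Col26a1 held no match to any of these letters. In the 250 bases before the start, 18 of the 29 members with a promoter entry held a GC box (62.1%, against 32.4% of 27457 genes), among them 6 of 7 fibrillar and 5 of 6 type IV genes and 7 of 16 of the other types. The CCAAT letters were found in 8 of the 29 (27.6%, against 34.3%) and the TATA letters in 2 (6.9%, against 13.1%). Unlike the stretches shown, these 250-base windows were not cut at annotated genes. Those of head-to-head type IV genes can therefore overlap and hold the same match. Such matches describe letters and are not evidence of binding.

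The fibrillar collagens showed no change past the threshold, in 0 of the 8 tested genes (22.9% of all genes tested passed). Col1a1, the main chain of type I collagen, stood at 2973 and 2964 normalised counts in mock and at 3027 and 2932 with Pdk3. The Pdk3 libraries lay on either side of the mock ones, with a log2 fold change of 0.01 and a 95% interval of -0.04 to 0.05 (limma adjusted p = 0.872). Col3a1, which forms fibrils together with type I, had 1544 and 1535 against 1541 and 1522, and the groups overlapped (log2 fold change -0.01, interval -0.05 to 0.04). Counting noise alone gives intervals of -0.05 to 0.06 for Col1a1 and -0.08 to 0.07 for Col3a1. Under ribosomal protein scaling both passed as lower, at -0.08 for Col1a1 and -0.09 for Col3a1, where the median of all genes was -0.09. Values of Col1a2 are not analysed here.

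Type V collagen, which sits inside type I fibrils and sets their width, had small differences of both signs, none past the threshold. Col5a1 had 1639 and 1687 in mock and 1727 and 1673 with Pdk3, with overlap between the groups. Col5a2 had 1166 and 1192 against 1216 and 1227, both Pdk3 libraries above both mock libraries (log2 fold change 0.05, interval -0.00 to 0.11, adjusted p = 0.157). Col5a3 had 332 and 362 against 314 and 329, both Pdk3 libraries below (log2 fold change -0.11, interval -0.24 to 0.02, adjusted p = 0.205). The ratio of Col5a1 to Col5a3 was 4.94 and 4.66 in mock and 5.50 and 5.09 with Pdk3. None of these differences passed limma, and Col5a3 passed as lower under ribosomal protein scaling (adjusted p = 0.0172, with a range of 0.0172 to 0.873 over 20 alternatives).

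The groups overlapped for the remaining tested fibrillar genes. Col11a1 of type XI had 188 and 182 in mock and 186 and 203 with Pdk3, Col27a1 236 and 281 against 225 and 261, and Col24a1 20 and 24 against 26 and 15. Col2a1, the cartilage collagen, and Col11a2 were not tested, with values of 1 to 4 and of 0 to 10. Over the 8 tested fibrillar genes 4 log2 fold changes were above 0 and 4 below, from -0.14 for Col24a1 to 0.07 for Col11a1, with a median of -0.00 (-0.09 under ribosomal protein scaling).

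Type IV genes were all tested, and 2 of the 6 passed (33.3%, against 22.9% of all genes tested and 34.2% of those with a mean of at least 500). Mammals have paired type IV genes, each pair arranged head to head, and the chains of Col4a1 and Col4a2 build the common network of most basement membranes. Col4a1 had 3575 and 3525 in mock and 3652 and 3668 with Pdk3. Both Pdk3 libraries were above both mock libraries, but the difference missed the threshold (log2 fold change 0.04, interval 0.01 to 0.08, limma adjusted p = 0.0685). Col4a1 passed as higher with TMM scaling, another scaling of the libraries (adjusted p = 0.0358), and with a minimum value of 50 (0.0470). Under ribosomal protein scaling the sign turned (-0.04). Col4a2 (ENSRNOG00000023972, chromosome 16, 83387364 to 83438561, rn6) had 2921 and 2925 against 3149 and 3014. The mean of Col4a2 rose from 2923 ± 2.83 to 3081.5 ± 95.5 (SD, 2 libraries each), with a log2 fold change of 0.08 ± 0.02 (SE, limma adjusted p = 0.0435). With p of every gene not allowed below counting noise, the call of Col4a2 ended (adjusted p = 0.0561). With counting noise alone it passed (adjusted p = 0.0290), and its counting interval ran from 0.02 to 0.13, as did limma's. Its direction turned under ribosomal protein scaling (-0.01). Over 20 alternatives, among them runs with counting noise alone, Col4a2 passed in 7, with adjusted p of 0.0111 to 0.698. The ratio of Col4a2 to Col4a1 was 0.817 and 0.830 in mock and 0.862 and 0.822 with Pdk3, with overlap. The table's gene model of Col4a2 spans 51198 bases, while RefSeq's spans 135849 bases. Its values count reads in the shorter model, and the effect of this on the ratio was not tested.

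Chains of Col4a3, Col4a4 and Col4a5 build the network known from the filter of the kidney. Col4a4 (ENSRNOG00000014851, chromosome 9, 88232455 to 88357182, minus strand, rn6) had 2910 and 3019 in the mock and 3290 and 3224 in the Pdk3 libraries. The groups did not overlap, which held for 14 of the 28 tested members and 61.0% of all genes tested. The mean of Col4a4 rose from 2964.5 ± 77.1 to 3257 ± 46.7 (SD, 2 libraries each), with a log2 fold change of 0.14 ± 0.02 (SE, limma adjusted p = 0.00393), and the call held at counting noise (adjusted p = 0.00406). Col4a4 passed in 12 of 20 alternatives, with log2 fold changes of 0.05 to 0.16. These passes include every run with counting noise alone, an alternative chosen after seeing the data, which gave the smallest adjusted p (4.56e-06). Under ribosomal protein scaling Col4a4 did not pass (0.05, adjusted p = 0.0778). Nor did it pass without a filter (adjusted p = 0.0589) or without the intensity trend (adjusted p = 0.145). Col4a4 also passed in no limma fit with a library left out. Its head-to-head partner Col4a3 had 270 and 307 against 297 and 338, with overlapping groups and a log2 fold change of 0.14 that did not pass (interval -0.05 to 0.33, adjusted p = 0.266). The ratio of Col4a4 to Col4a3 was 10.8 and 9.83 in mock and 11.1 and 9.54 with Pdk3, not corrected for length. The table's gene model of Col4a4 spans 124728 bases, while RefSeq's spans 42254 bases, and those of Col4a3 span 128275 and 129099 bases. Which part of the longer model the reads fell on was not tested.

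Col4a5 and Col4a6 had values below mock that did not pass. Col4a5 had 1668 and 1725 in mock and 1627 in each Pdk3 library, and Col4a6 had 314 and 326 against 306 and 304. In both genes each Pdk3 library was below each mock library, and neither passed limma (log2 fold changes -0.06 and -0.07, adjusted p = 0.0955 and 0.330), while under ribosomal protein scaling both passed as lower. The ratio of Col4a4 to Col4a5 was 1.74 and 1.75 in mock and 2.02 and 1.98 with Pdk3, and that of Col4a1 to Col4a5 was 2.14 and 2.04 against 2.24 and 2.25, all Pdk3 libraries above all mock libraries. Such ratios within a library do not depend on how libraries are scaled, and with 2 libraries a group an exact permutation test of them could not pass. Over the 6 genes the median log2 fold change was 0.06, and -0.03 under ribosomal protein scaling. The table's gene model of Col4a6 spans 68176 bases, while RefSeq's spans 351043 bases.

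**Figure D2:**
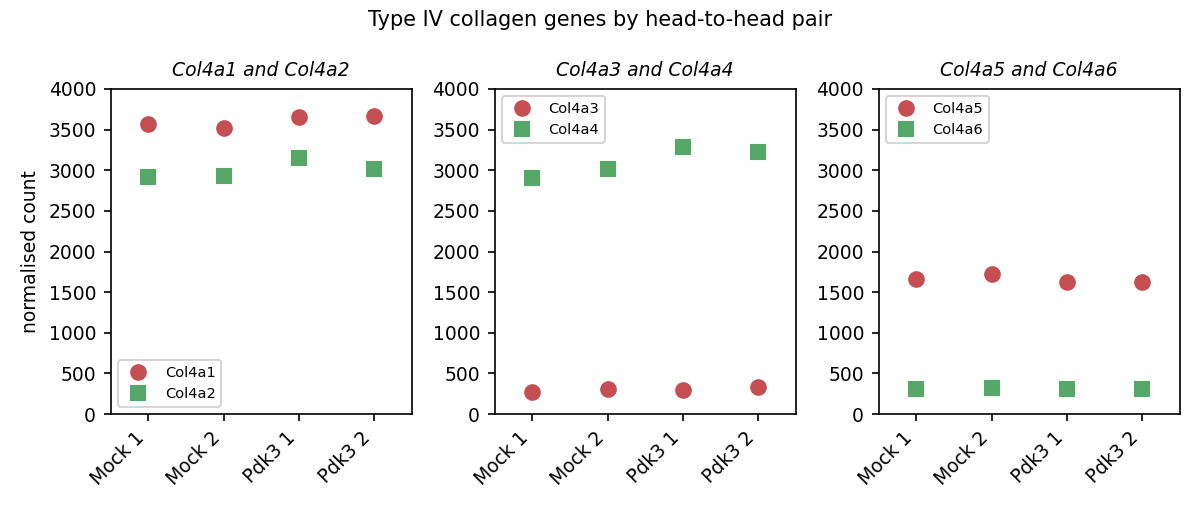
Normalised counts (y axis, from 0) of the 6 type IV collagen genes in each of the 4 libraries (x axis), 1 panel per head-to-head pair. Col4a4 reaches 3290 and 3224 in the Pdk3 libraries, Col4a3 beside it stays between 270 and 338, and Col4a5 is lower with Pdk3 by a margin that did not pass the test. Levels are not corrected for gene length.

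Summed over their members, type IV genes had 11658 and 11827 normalised counts in mock and 12321 and 12175 with Pdk3. That is 44.3% of all collagen counts in each mock library and 45.3% and 45.4% in the Pdk3 libraries. The fibrillar genes held 30.8% in each mock library and 30.4% in each Pdk3 library, with sums of 8112 and 8236 against 8269 and 8166. The other types held 24.9% in each mock and 24.2% in each Pdk3 library. Means of the sums went from 11742.5 ± 119.5 to 12248 ± 103.2 for type IV and from 8174 ± 87.7 to 8217.5 ± 72.8 for the fibrillar genes (SD, n = 2 each). Col4a1, Col4a2 and Col4a4 make up most of the type IV sum, so these shares add nothing independent to the values of those genes. All 37 members together summed to 26325 and 26718 in mock and to 27174 and 26837 with Pdk3.

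**Figure D3:**
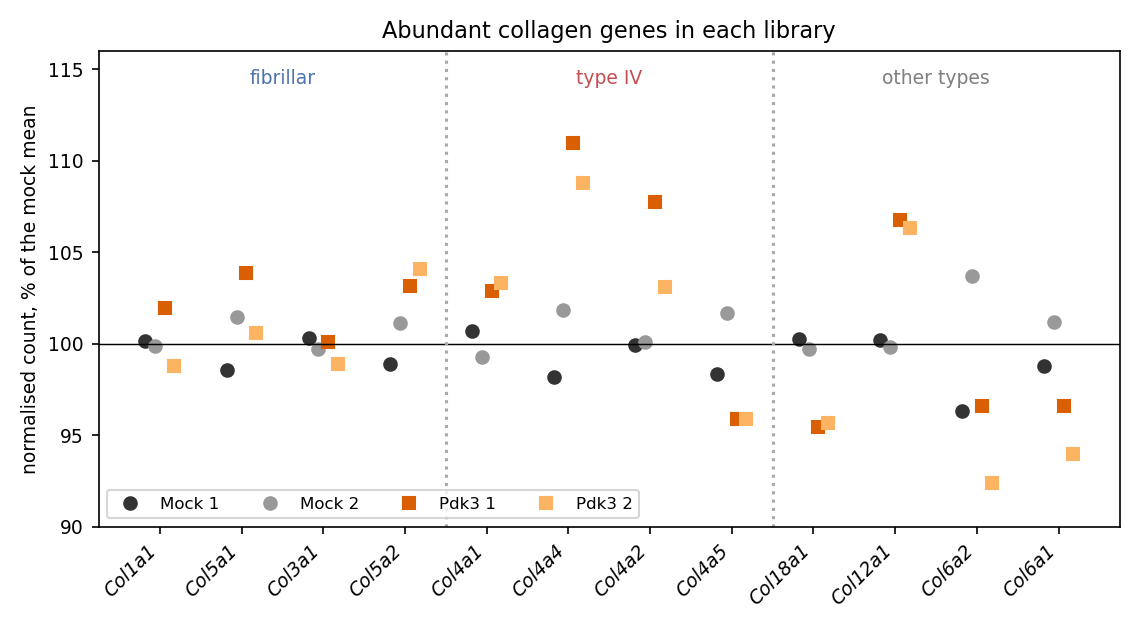
Normalised count of each library as a percentage of the gene's mock mean (y axis, not drawn from 0) for the 12 collagen genes with a mean of at least 500, by class. Circles are mock and squares are Pdk3 libraries. Col4a4 and Col12a1 have both Pdk3 libraries above mock, Col18a1 has both below, and the groups overlap for Col1a1 and Col3a1. Groups do not overlap in 66.7% of these 12 genes and in 71.9% of all genes with such a mean. The calls of Col12a1 and Col18a1 ended at counting noise. Under ribosomal protein scaling the rises of Col4a4 and Col12a1 did not pass.

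Among collagens that bind to the surface of fibrils, 1 of 4 tested genes passed (22.9% of all genes tested). Col12a1, type XII, had 1415 and 1410 in mock and 1508 and 1502 with Pdk3, with narrow spread in both groups and no overlap. The mean of Col12a1 rose from 1412.5 ± 3.54 to 1505 ± 4.24 (SD, 2 libraries each), with a log2 fold change of 0.09 ± 0.02 (SE, limma adjusted p = 0.0154). The call ended at counting noise (adjusted p = 0.0846) and under ribosomal protein scaling (0.00, adjusted p = 0.901), and it held in 6 of 20 alternatives, with adjusted p from 0.00647 to 0.901. The related genes Col14a1 (224 and 241 against 234 and 220) and Col16a1 (144 and 134 against 148 and 140) overlapped between the groups, as did Col20a1 at 12 to 15. Col9a2, Col9a3, Col19a1 and Col22a1 were too low to test. Of these Col19a1 had 3 and 4 in mock and 8 and 11 with Pdk3.

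Of 3 tested collagens of the basement membrane zone outside type IV, 1 passed, as lower (11.3% of all genes tested). Col18a1, type XVIII, whose end fragment is endostatin, had 2314 and 2301 in mock and 2203 and 2207 with Pdk3. Its mean fell from 2307.5 ± 9.19 to 2205 ± 2.83 (SD, n = 2 each), a log2 fold change of -0.07 ± 0.02 (SE, limma adjusted p = 0.0272). The call ended at counting noise (adjusted p = 0.139) and held in 6 of 20 alternatives, with adjusted p from 1.17e-05 to 0.351, and its direction was downward in all 20. Col15a1, the related type XV, had 20 and 22 against 12 and 18, both Pdk3 libraries below, without passing (log2 fold change -0.48, interval -1.11 to 0.14). Col7a1 of the anchoring fibrils had 73 and 69 against 69 and 76.

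No gene of type VI collagen, which forms beaded filaments around cells, passed the test. Col6a1 had 818 and 838 in mock and 800 and 778 with Pdk3, with no overlap (log2 fold change -0.07, interval -0.14 to -0.00, adjusted p = 0.132). Col6a2 had 1009 and 1086 against 1012 and 968, with overlap (log2 fold change -0.08, interval -0.17 to 0.01, adjusted p = 0.184). Both passed as lower under ribosomal protein scaling, at -0.16 and -0.17. The ratio of Col6a2 to Col6a1 was 1.23 and 1.30 in mock and 1.27 and 1.24 with Pdk3. Col6a1, Col6a2 and Col18a1 share a stretch of chromosome 20, with 97865 bases between the first pair and 325206 bases between Col18a1 and Col6a1 (rn6). Col6a6 stood at 6 to 18, and Col6a4 at 0 or 1 was not tested.

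Among the 28 tested members the largest log2 fold change was that of Col26a1, a low gene. Col26a1 (ENSRNOG00000001422, chromosome 12, 22835019 to 22980603, plus strand, rn6) encodes type XXVI collagen, a short secreted collagen. It stood at 22 and 27 normalised counts in mock and at 43 in each Pdk3 library, and the groups did not overlap. Its mean rose 1.76-fold, from 24.5 ± 3.54 to 43.0 ± 0.00 (SD, n = 2 each), a log2 fold change of 0.79 ± 0.18 (SE, limma adjusted p = 0.0197), and the call held at counting noise (adjusted p = 0.0235). At this depth the counting interval of the log2 fold change runs from 0.26 to 1.31. It passed in 9 of 19 alternatives, among them runs with counting noise alone, and in no limma fit with a library left out. Its log2 fold changes ran from 0.65 to 0.94. With all libraries its adjusted p ran from 0.0117 under ribosomal protein scaling to 0.0681 without a filter. The transmembrane collagen genes Col13a1 (39 and 41 against 52 and 48) and Col17a1 (16 and 20 against 25 and 23) also had both Pdk3 libraries above both mock libraries. Neither passed, with intervals of -0.03 to 0.66 and -0.12 to 0.93. Col8a1 of the short network collagens had 412 and 424 against 419 and 423, while Col8a2 and Col28a1 were too low to test. The 9 members that were not tested had values from 0 to 11.

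Genes that act on collagen after translation were followed as lists. Of 22 tested genes of collagen modification and folding, 2 were higher and 3 lower (22.7%, against 22.9% of all genes tested), with a median log2 fold change of -0.01. P4ha1, a catalytic subunit of the prolyl hydroxylase that stabilises the helix, had 507 and 533 in mock and 653 and 610 with Pdk3 (log2 fold change 0.28, limma adjusted p = 0.00414). Serpinh1, the collagen chaperone, rose by 0.09 (adjusted p = 0.0397, 0.131 at counting noise and 0.934 under ribosomal protein scaling). Plod3, a lysyl hydroxylase, fell by 0.17, P3h2, a prolyl hydroxylase known for acting on type IV collagen, fell by 0.19, and Sec16a, which organises the sites where cargo leaves the endoplasmic reticulum, fell by 0.20 on the log2 scale. The call of P3h2 also ended at counting noise (adjusted p = 0.0513).

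Of 16 tested genes of processing and crosslinking, 1 was higher and 2 lower (18.8%, against 22.9% of all genes tested), with a median of -0.14. The crosslinking transglutaminase gene Tgm2 had 1935 and 1960 against 2118 and 2054 (log2 fold change 0.10, limma adjusted p = 0.0146, and 0.705 under ribosomal protein scaling). Bmp1, which cuts the end of procollagen, fell by 0.12 (adjusted p = 0.0411, and 0.0998 at counting noise), and Dcn, a proteoglycan that binds fibrils, fell by 0.31. Among 8 tested collagen receptors 2 were higher and 2 lower, where 11.7% of all genes were higher and 11.3% lower. Itgb1, the shared beta chain of collagen-binding integrins, rose by 0.11 (adjusted p = 0.0118, and 0.398 under ribosomal protein scaling), while Itga1, the alpha chain that binds type IV collagen, had 1194 and 1166 against 1013 and 990 and fell by 0.24 (adjusted p = 0.000743). Mrc2, an uptake receptor for collagen, rose by 0.41, and Ddr1, a receptor kinase, fell by 0.08 (adjusted p = 0.0431, and 0.147 at counting noise).

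Partners of type IV collagen in basement membranes had 7 of 17 tested genes higher and 2 lower, with a median of 0.08, and under ribosomal protein scaling 2 higher and 6 lower, with a median of -0.01. Of all genes tested 22.9% passed (11.7% higher and 11.3% lower), and of those with a mean of at least 500, 34.2%. Under ribosomal protein scaling 937 of all 12838 genes were higher and 3594 lower. Nid2, a linker between laminin and type IV collagen, had 553 and 567 against 701 and 666 (log2 fold change 0.29, limma adjusted p = 0.00163), while the related Nid1 had 1372 and 1356 against 1240 and 1203 (-0.16, adjusted p = 0.00340). Among laminin chain genes, Lama2 rose by 0.08 and Lama5 fell by 0.12. Pxdn, the peroxidase that crosslinks type IV collagen, rose by 0.17 (adjusted p = 0.00511). Of these, Nid2 passed as higher and Nid1 and Lama5 as lower under ribosomal protein scaling, while Lama2 and Pxdn did not pass. Of 25 other matrix genes 1 was higher and 2 lower (12%, against 22.9% of all genes tested). Fbn2, a fibrillin of microfibrils, had 206 and 223 against 406 and 445 (log2 fold change 0.98, adjusted p = 6.93e-05), and Emilin1, an elastic fibre protein, had 1194 and 1205 against 971 and 981 (-0.30). Prelp, a small proteoglycan, fell by 0.13 (adjusted p = 0.0493, and 0.209 at counting noise).

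Among 23 tested genes of TGF-beta signalling, the classic inducer of collagen genes, and other collagen regulators, 1 was higher and 5 lower (26.1%, against 22.9% of all genes tested), with a median of -0.06. The receptor genes Tgfbr3 and Tgfbr2 fell by 0.43 and 0.30 (limma adjusted p = 0.000134 and 0.00204), and Smad3, which carries the signal to the nucleus, fell by 0.17 (adjusted p = 0.0340, and 0.0865 at counting noise). Tgif1, a corepressor of the pathway, fell by 0.50. The member that rose was Cbfb, a partner of the Runx factors (0.25). Over the lists named in these paragraphs, 14 genes were higher and 16 lower, and under ribosomal protein scaling 6 and 46.

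**Figure D4:**
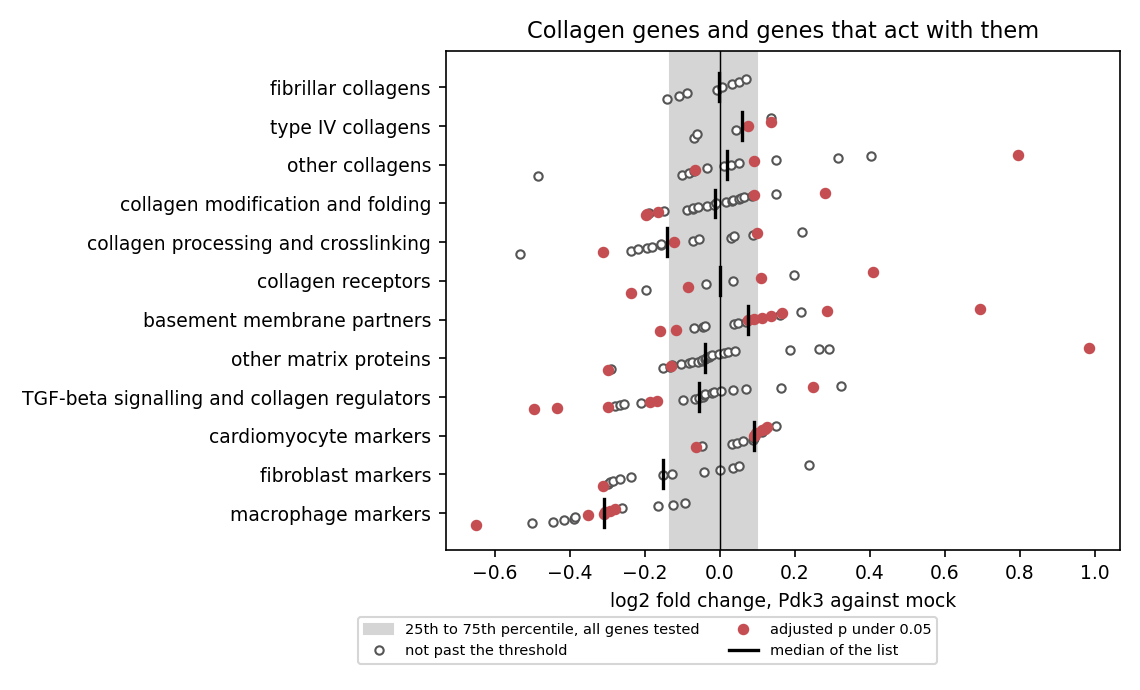
Log2 fold change (x axis) of each tested gene of the 3 collagen classes, of the lists of genes that act with collagens and of selected marker lists, with a bar at the median of each list. Filled points mark an adjusted p under 0.05. The basement membrane partners have 7 filled points above 0 (2 under ribosomal protein scaling), the fibrillar collagens have no filled point, and the macrophage markers all lie below 0. Ribosomal protein scaling moved the median of all genes from -0.01 to -0.09. Under it, 6 of the 111 tested genes that act with collagens were higher and 46 lower, beside 937 and 3594 of all 12838 genes.

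Markers of other cells that make collagen are given here, beside 11.7% of all genes tested that were higher and 11.3% that were lower. Of 13 tested fibroblast markers 1, Dcn, was lower and 0 were higher, with a median log2 fold change of -0.15, and the list summed to 2750 and 2635 in mock and 2599 and 2586 with Pdk3. Of 12 smooth muscle and pericyte markers 4 were higher, namely Cnn1, Cspg4, Acta2 and Tagln (0.35, 0.19, 0.22 and 0.25), and Abcc9 was lower (-0.13), with sums of 8321 and 8211 against 8677 and 8623. Abcc9, the highest of the 12, weighs heavily in these sums, at 2413 and 2402 in mock and 2181 and 2206 with Pdk3. Which cells of the culture its reads came from was not tested. Endothelial markers had 2 of 11 lower, Cdh5 (-0.52) and Tie1 (-0.39), with sums of 1918 and 1964 against 1828 and 1772. Macrophage markers had 6 of 15 lower, such as C1qa and Csf1r (-0.65 and -0.31), with sums of 2212 and 2077 against 1803 and 1730, and mesothelial and epicardial markers 2 of 9, Lrrn4 and Krt19 (-0.75 and -0.97), with sums of 689 and 672 against 589 and 588. Cardiomyocyte markers had 6 of 15 higher, such as Myh7 and Actc1 (0.12 and 0.13), and 1, Ryr2, lower (-0.06), but 0 higher and 2 lower under ribosomal protein scaling. Of 5 tested Schwann and neural markers Cnp was lower (limma adjusted p = 0.0181, and 0.0570 at counting noise), and of 4 tested cartilage markers 0 passed. Under ribosomal protein scaling 4 of the 84 tested marker genes were higher and 29 lower, against 10 and 14. The 4 were Cnn1, Cspg4, Acta2 and Tagln, while 2 of the 12 smooth muscle and pericyte markers were lower. That scaling gave 937 higher and 3594 lower over all 12838 genes. No marker found in the table was at 0 in every library. In bulk RNA, fewer cells of a type and less RNA per cell cannot be told apart, and the part of these markers' cells in the collagen values was not tested.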

How the data were processed

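RNA of 4 libraries of neonatal rat cardiomyocytes, 2 with a mock and 2 with a Pdk3 adenovirus vector, was sequenced as stranded mRNA libraries, per the labels' protocols. Tools listed in the submitters' processing notes are Trimmomatic 0.39, FastQC, featureCounts 1.6.5 (Subread), STAR 2.6.1d and DESeq2 1.26.0, with the build rn6 and no settings. The deposited values are used as a score: read counts per gene that the authors normalised between libraries and rounded to whole numbers. How duplicate reads, strand and low genes were handled is not given in the sources used here. No gene in the table overlaps a collagen gene.

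Scaling factors estimated from the steps between values (1.0255 and 1.0567 for Mock 1 and 2, 0.9246 and 0.9627 for Pdk3 1 and 2) give about 4562000, 4707000, 4139000 and 4304000 reads in genes. The spread within pairs was on average below counting noise, with a mean chi-square per gene of 0.598 in mock and 0.600 in Pdk3 where 1 would be counting noise, and it fell from 0.829 and 0.887 at mean values of 10 to 50 to 0.411 and 0.454 at 1000 to 3000. In the 34 genes at 3000 and above, which include Col4a1, Col4a2 and Col4a4, it was 0.745 and 1.02. The highest values belong to very long genes such as Dst, Xirp2 and Ryr2. If duplicate reads were removed, changes of abundant genes would be understated, and this was not tested. Intervals cover counting error or the spread of these libraries only, and PCR copies of a molecule could not be told from separate molecules.

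Values were tested on log2(value + 1) with limma 3.58.1 in R 4.3.3 (lmFit, eBayes with an intensity trend, group as the single term, residual degrees of freedom 2, prior degrees of freedom 5.56) across the 12838 genes that reached 10 in 2 or more libraries. All p-values are two-sided, were adjusted over all genes by the Benjamini-Hochberg method and were read against 0.05. The log2(value + 1) scale understates changes of low genes. At counting noise, p is limma's unless an exact binomial test of the reads summed per group gave a larger one. Sums, shares and ratios over genes are not corrected for length, since no transcript lengths were used here, so they do not rank genes by level.

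Alternatives were other scalings, filters, pseudocounts, thresholds, variance models and left-out libraries. Members and lists were chosen with earlier results of these data known. Every collagen gene is reported. Named genes of each other list were, by smallest p, at most 4 past the threshold in the direction with more calls and at most 2 in the opposite one. A gene that this rule names is not reported here. List genes absent by symbol were matched through RefSeq synonyms. RefSeq promoters (GRCr8) matched 29 of 37 members. Simulated data for this comparison covered 12836 genes, drew reads with counting noise alone, and gave limma 0 false calls. The real pairs spread on average less than counting noise, so this does not measure false calls in these data. The changed genes all had a mean of at least 50. Of 50 genes given each size of change, limma found 4% at 1.1-fold, 50% at 1.25-fold, 72% at 1.5-fold and 98% at 2-fold.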

Additional observations from a re-analysis of the deposited data

How the results depend on the processing

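With limma on all 4 libraries, 4 collagen genes were higher and 1 lower. These counts stayed within 1.5 times with TMM scaling, a minimum value of 50 and pseudocounts of 0.5 and 8. With TMM scaling Col4a1 joined the higher genes. With a minimum value of 50 Col4a1 joined them too, while Col26a1 was not tested. At a false discovery rate of 0.01 the counts were 1 and 0 for collagen genes and 6 and 8 for genes that act with collagens. For markers the counts were 7 and 7, and for all genes 766 and 576. With a log2 change of at least 0.5 they were 1 and 0 for collagens, 2 and 0 for the genes that act with them, 0 and 4 for markers and 488 and 264 for all genes. Without a filter they were 1 and 0, 5 and 8, 5 and 7, and 737 and 539 in the same order, and the fibrillar median moved from -0.0012 to -0.047. Without the intensity trend they were 0 and 0, 2 and 3, 1 and 7, and 526 and 325. There, 4 of 28 collagens and 3818 genes had an unadjusted p under 0.05. At counting noise 2 collagens were higher and 0 lower, and lower calls came to 10 among the genes that act with collagens and to 963 over all genes.

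Under ribosomal protein scaling the counts were 1 higher and 8 lower for collagens, 6 and 46 for genes that act with them, 4 and 29 for markers and 937 and 3594 for all genes. The medians became -0.027 for type IV, -0.088 for fibrillar and -0.066 for other types, and the log2 fold changes of Col1a1 and Col4a2 turned to -0.081 and -0.011. This scaling moved the median of all genes from -0.01 to -0.09, and the cause of its difference from the authors' scaling was not tested. A minimum value of 50 moved the median of the other types from 0.020 to -0.012, with fewer genes in it, and adding types VII, XV and XVIII to type IV moved that median from 0.060 to 0.029.

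Leaving out 1 library each, limma made from 0 to 0 calls for every one of these counts, with the lone library of a group assumed to vary like the other group. The medians ranged from 0.043 to 0.055 for type IV, from -0.0038 to 0.021 for fibrillar and from -0.0060 to 0.011 for other types. Counting noise alone, an alternative chosen after seeing the data that takes no account of spread between libraries, gave 3 collagens higher and 0 lower with all libraries. Leaving out 1 library each it gave 1 to 2 collagens higher and 0 to 0 lower, 7 to 10 (8 and 9 between) and 8 to 10 genes that act with collagens, and 5 to 8 and 6 to 14 markers. Over all genes it gave 782 and 634 without Mock 1, 845 and 744 without Mock 2, 796 and 628 without Pdk3 1, and 783 and 604 without Pdk3 2.

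With a replicate block the counts were 1374 higher and 1298 lower for all genes and 4 and 1 for collagens, and the block changed no collagen call. The deviations of same-numbered libraries correlated at r = 0.038 across 12838 genes. Their spread is on average below counting noise, so this cannot tell whether same-numbered libraries share a culture, and the labels do not say. Levels per length were not run, since no transcript lengths were used here, so shares of the collagen sum lean to long transcripts. Col26a1 and the other genes under a value of 50 are limited by depth.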
